A study of Mus musculus with 24 samples.

Results

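The nuclear genes of the mitochondrial respiratory chain and ATP synthase were followed across adrenal glands of WT and Kcnk3 null mice. Members were the genes whose array name begins with Nduf, Sdha, Sdhb, Sdhc, Sdhd, Uqcr, Cox4i, Cox5, Cox6, Cox7, Cox8 or Atp5, pseudogene names left out. The rule found 91 genes with 122 probes, of 36413 named features on the array. A gene was kept if 3 or more of the 24 arrays read it well above background, and its brightest such probe stood for it. This kept 89 members, among 26369 features in all. The other two, Cox8c and Cox7b2, were not well above background on any array. By name, 7 members are core subunits of complex I, and 31 others with Nduf names, Ndufa4 and Ndufa4l2 among them, were counted with complex I. By the same rule 4 were counted with complex II, 8 with complex III, 16 with complex IV and 16 with complex V, and 7 as assembly factors.

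The respiratory chain passes electrons from NADH and succinate to oxygen through complexes I to IV, and complex V uses the resulting proton gradient to make ATP. In the adrenal cortex mitochondria also hold the enzymes for the first and last steps of steroid synthesis. Several complex IV subunits come in pairs, one made in most tissues (Cox6a1, Cox7a2, Cox8a) and one typical of heart, skeletal muscle or brown fat (Cox6a2, Cox7a1, Cox8b), while Cox6b2 is known from testis.

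Adrenal gland RNA of C57BL/6 mice had been hybridised to one-colour arrays, with 8 groups of 3 arrays. Kcnk3 encodes the background potassium channel TASK1, and the null allele was carried by 4 of the groups, all others being WT. Males of each genotype were sham operated or castrated, and females of each genotype were sham treated or injected with testosterone. How the allele was made, the age of the mice, the hormone dose and whether glands were pooled are not given in the sources used here, nor do the labels say that arrays came from separate animals, so p-values measure the spread between these samples. Levels below are log2 signal minus the 75th percentile of the array, and differences are in the same unit, each ± its standard error from limma. Called means an adjusted p (Benjamini-Hochberg, over all 26369 features) below 0.05. In RNA of a gland, fewer cells of a type and less RNA per cell cannot be told apart.

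Several arrays stood apart. Between 57.0% and 64.7% of spots were well above background. Kcnk3 itself lay between 5.00 and 6.46 on the WT arrays and between 2.08 and 4.96 on the null arrays, so the male null sham array 2 came close to the male WT sham array 3. On 9 arrays, transcripts linked to the opposite sex stood at 17.4% to 58.0% of their mean in a reference group of that sex (Ddx3y and Eif2s3y in male WT sham, Xist in female null sham), against at most 6.08% on the others: female WT sham 2 and 3, all female WT testosterone, male null sham 1 and 2, and male null castrated 1 and 2. Group names are therefore those of the labels. Skeletal muscle transcripts were high on male WT castrated array 2 and female WT sham array 2, and liver transcripts on male WT sham array 3 and female null testosterone array 1. RNA integrity was 3 on female WT sham array 3 and female WT testosterone array 3, which lay together on the fourth slide. The 7 adrenal cortex markers were all measured, and the log2 of their summed signal, on the scale above, was 10.16 to 11.12.

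Promoters are shown for Ndufb6 and Cox6b2, which were called below, for the tissue isoforms Cox8b and Cox7a1, and for 1 widely expressed partner, Cox6a1. None is shown for Cox6a2. Each line gives the 250 bases before the RefSeq start site (GRCm38.p6), read in the direction of transcription. Capitals mark matches, on either strand, to GCATGCGC (NRF1), AAGGTCA (ERR), CCGGAAG (GABP), CAGCTG (E-box), CCAAT (bound by NF-Y), GGGCGG (GC box) and AGAACA (androgen receptor hexamer). They lie at chr4:40279422-40279671 (minus strand), chr7:4753095-4753344 (minus), chr7:140900447-140900696 (minus), chr7:30183921-30184170 (plus) and chr5:115348959-115349208 (minus).
Ndufb6: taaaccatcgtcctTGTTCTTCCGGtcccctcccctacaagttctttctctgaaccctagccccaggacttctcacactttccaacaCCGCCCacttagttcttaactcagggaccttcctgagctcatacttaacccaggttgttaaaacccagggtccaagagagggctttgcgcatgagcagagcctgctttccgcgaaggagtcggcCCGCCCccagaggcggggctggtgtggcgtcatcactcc
Cox6b2: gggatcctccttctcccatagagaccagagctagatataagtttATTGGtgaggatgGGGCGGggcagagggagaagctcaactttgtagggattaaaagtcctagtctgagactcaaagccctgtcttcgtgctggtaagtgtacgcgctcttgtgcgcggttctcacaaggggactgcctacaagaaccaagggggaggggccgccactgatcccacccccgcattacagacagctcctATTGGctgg
Cox8b: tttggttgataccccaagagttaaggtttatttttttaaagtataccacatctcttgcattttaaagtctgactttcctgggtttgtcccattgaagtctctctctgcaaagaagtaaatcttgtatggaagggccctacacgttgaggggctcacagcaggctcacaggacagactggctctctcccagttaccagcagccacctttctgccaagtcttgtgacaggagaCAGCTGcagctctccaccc
Cox7a1: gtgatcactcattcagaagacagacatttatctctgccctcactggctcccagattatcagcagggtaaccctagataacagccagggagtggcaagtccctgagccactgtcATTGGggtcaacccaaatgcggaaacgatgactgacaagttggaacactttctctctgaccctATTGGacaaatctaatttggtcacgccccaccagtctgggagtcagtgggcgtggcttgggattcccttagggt
Cox6a1: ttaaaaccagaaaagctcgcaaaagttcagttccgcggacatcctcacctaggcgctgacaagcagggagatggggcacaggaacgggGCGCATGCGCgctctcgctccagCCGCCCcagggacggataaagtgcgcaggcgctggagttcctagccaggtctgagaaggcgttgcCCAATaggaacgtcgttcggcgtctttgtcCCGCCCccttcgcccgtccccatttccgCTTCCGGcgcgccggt

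The widely expressed Cox6a1 held overlapping NRF1 matches, a GABP match, a CCAAT box and 2 GC boxes. Cox8b held a single E-box match and none of the others, and Cox7a1 held 2 CCAAT boxes. Ndufb6 held a GABP match that overlaps an androgen receptor hexamer, and 2 GC boxes, while Cox6b2 held 2 CCAAT boxes and 1 GC box. Promoter windows were found for 75 of the 89 members, 81 windows in all. NRF1 letters stood in 11.1% of them and in 2.26% of all 32841 windows, GABP letters in 17.3% and 6.91%, and ERR letters in 6.17% and 4.08%. The CCAAT box stood in 43.2% and 33.9%, the GC box in 38.3% and 32.7%, the E-box in 7.41% and 13.0%, and the androgen receptor hexamer in 7.41% and 16.1%. These matches are descriptions of letters in a window.

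The members varied little. The median standard deviation between arrays of a group was 0.206 over members and 0.344 over all features. Signal level was not matched in this comparison. On 64 of the 89 the highest and lowest of the arrays differed by less than 1, and the median of that range was 0.86. The roles of the complexes lay on the same side of their means on the most extreme arrays. On female WT testosterone array 3, complex III members lay 0.43 above their own means in the median, complex I core members 0.38 and complex V members 0.36. On female null sham array 3 the same roles lay at -0.44, -0.42 and -0.23. They parted elsewhere: on female WT sham array 3 complex I core members lay at 0.08 and complex II at -0.24. Arrays of 1 group often lay on opposite sides of the mean, as in the female null sham group, where the median over members ran from -0.32 to 0.09. Assembly factors, which help build the complexes and are not part of them, stayed between -0.22 and 0.17.

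**Figure D1:**
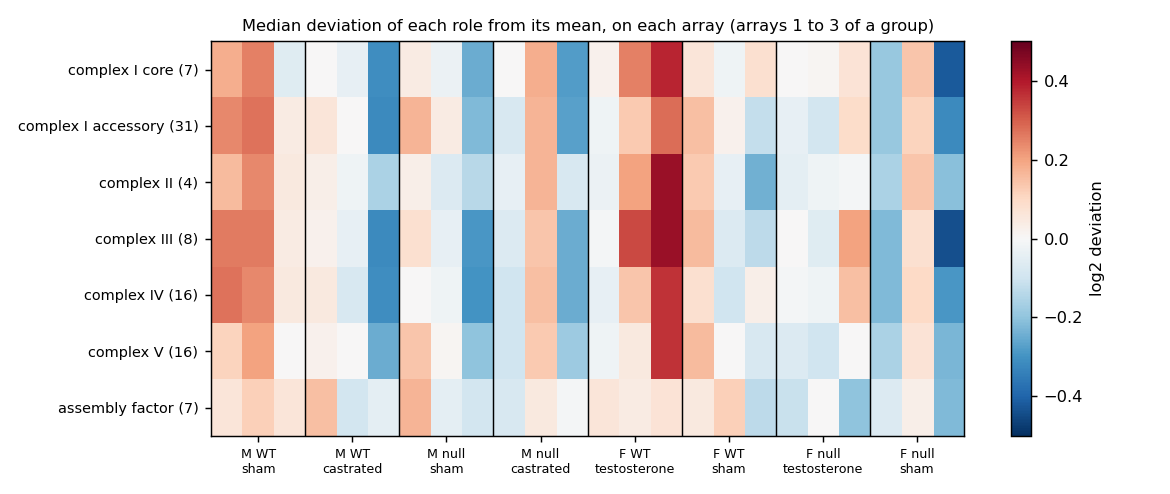
Median log2 deviation of the members of each role from their own means (colour), for 24 arrays grouped by label; the number of members is in brackets. Complexes I to V share their columns: female WT testosterone array 3 is high in each of them (0.28 to 0.43) and female null sham array 3 is low (-0.21 to -0.44).

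The comparison of androgen states asks how the gland differs with androgen. It sets sham males and testosterone females (high androgen, 12 arrays) against castrated males and sham females (low androgen, 12 arrays), as the mean of 4 pairs of groups. Cox6a2, the muscle and heart form of complex IV subunit 6a, was lower with high androgen by 2.35 ± 0.49 on the log2 scale, or 5.12-fold (limma, adjusted p = 0.00878). Ndufb6, a membrane subunit of complex I, was higher by 0.29 ± 0.08 (adjusted p = 0.0419), and Cox6b2, the testis form of subunit 6b, by 0.31 ± 0.08 (adjusted p = 0.0476). These 3 were the calls among 89 members, beside 3.55% of all features (1.46% higher and 2.09% lower), so the count is near the background. Of the 89 differences 80 were above 0, with a median of 0.14 against -0.01 over all features. At an unadjusted p under 0.05, 25.8% of members passed (21 higher, 2 lower), beside 13.3% of all features.

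Markers of adrenal zones moved in the same comparison. The X zone, an inner layer of the mouse cortex that regresses with androgen, was read by 2 markers, both lower with high androgen: Akr1c18 (-6.59 ± 0.88, adjusted p = 0.000163) and Pik3c2g (-4.83 ± 0.67, adjusted p = 0.000244). The log2 of their summed signal was 2.86 to 8.54 on the low-androgen arrays. It was -3.85 to -3.07 in WT sham males, null testosterone females and null sham male array 3, but 5.84 to 7.01 on the other 5 high-androgen arrays, all WT testosterone females and null sham males 1 and 2. These 5 are among the 9 arrays with transcripts of the opposite sex. Of the 7 cortex markers, Nr5a1, a steroidogenic transcription factor, was lower (-0.62 ± 0.13, adjusted p = 0.00809) and the other 6 were not called. Of 4 zona glomerulosa markers, Vsnl1 (1.2 ± 0.26, adjusted p = 0.0121) and Agtr1b (0.71 ± 0.17, adjusted p = 0.0247) were higher, while Cyp11b2 and Dab2 were not called. The part of these zones in the differences of the members was not tested.

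Cox6a2 was read by 1 probe, at chr7:135349160-135349219 (mm9, minus strand), well above background on all 24 arrays. In males, WT sham arrays read -3.15, -2.87 and -3.80, and WT castrated arrays -1.05, 4.03 and -0.35. Null sham arrays read -1.69, -1.13 and -2.82, and null castrated arrays -0.12, -0.94 and -0.69. Every castrated array lay above every sham array of its genotype. In females, WT testosterone arrays read -1.20, -2.56 and -1.73 and WT sham arrays 0.15, 2.71 and -0.90. Null testosterone arrays read -2.11, -2.84 and -3.07 and null sham arrays -0.90, -1.70 and -0.97. Here too the groups did not overlap in either genotype. Cox6a2 was the only member that separated in all 4 pairs in 1 direction, as did 65 of all features (0.247%), of which 44 (0.167%) were lower with androgen. Of the 12 low-androgen arrays 11 lay above all high-androgen arrays.

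Within slides, the Cox6a2 difference of high minus low androgen was -1.56, -3.38 and -2.56 on slides 1, 2 and 3, and -0.83 for the single pair on slide 4. The castration difference was 4.15 ± 0.98 in WT (adjusted p = 0.0617, and 0.0459 with the replicate number as a block) and 1.30 ± 0.98 in null males (adjusted p = 0.791). The testosterone difference was -2.48 ± 0.98 in WT (adjusted p = 0.589) and -1.49 ± 0.98 in null females (adjusted p = 0.93). The interaction of genotype with castration was -2.85 ± 1.39 (adjusted p = 1) and with testosterone 0.99 ± 1.39 (adjusted p = 1), so a difference between genotypes was not called.

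Skeletal muscle transcripts moved with part of this result, and their part in it was not tested beyond leaving arrays out. The highest Cox6a2 readings, 4.03 and 2.71, were on the 2 arrays where the muscle actin Acta1 read 5.33 and 3.91, while Acta1 lay at -0.51 or below on the other 22. Summed over the 9 measured muscle markers of 10 listed, the level ran from -0.71 to 9.16 in male WT castrated arrays, -0.54 to 7.90 in female WT sham arrays, and between -0.99 and 1.79 in the other groups. Ckm, muscle creatine kinase, read 3.51 and 2.00 on those 2 arrays, and was well above background also on female WT sham array 3 (-2.43) and male null sham array 3 (-5.19). Of the listed markers, 4 were below background on all male WT sham arrays, while 5 were well above it on all of them. On all female null sham arrays 4 were below background and 4 were well above it. Without the 2 arrays the androgen difference of Cox6a2 was -1.70 ± 0.24 (adjusted p = 0.000854), and without all 4 arrays with Ckm -1.72 ± 0.23 (adjusted p = 0.000931). Castration of WT males then gave 2.58 ± 0.51 (adjusted p = 0.0348) without the 2 arrays and 2.58 ± 0.43 (adjusted p = 0.0143) without the 4, both called. Over the 2 pairs untouched by the 9 arrays named above (WT males and null females), it was -2.82 ± 0.74, which missed the threshold (adjusted p = 0.154).

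**Figure D2:**
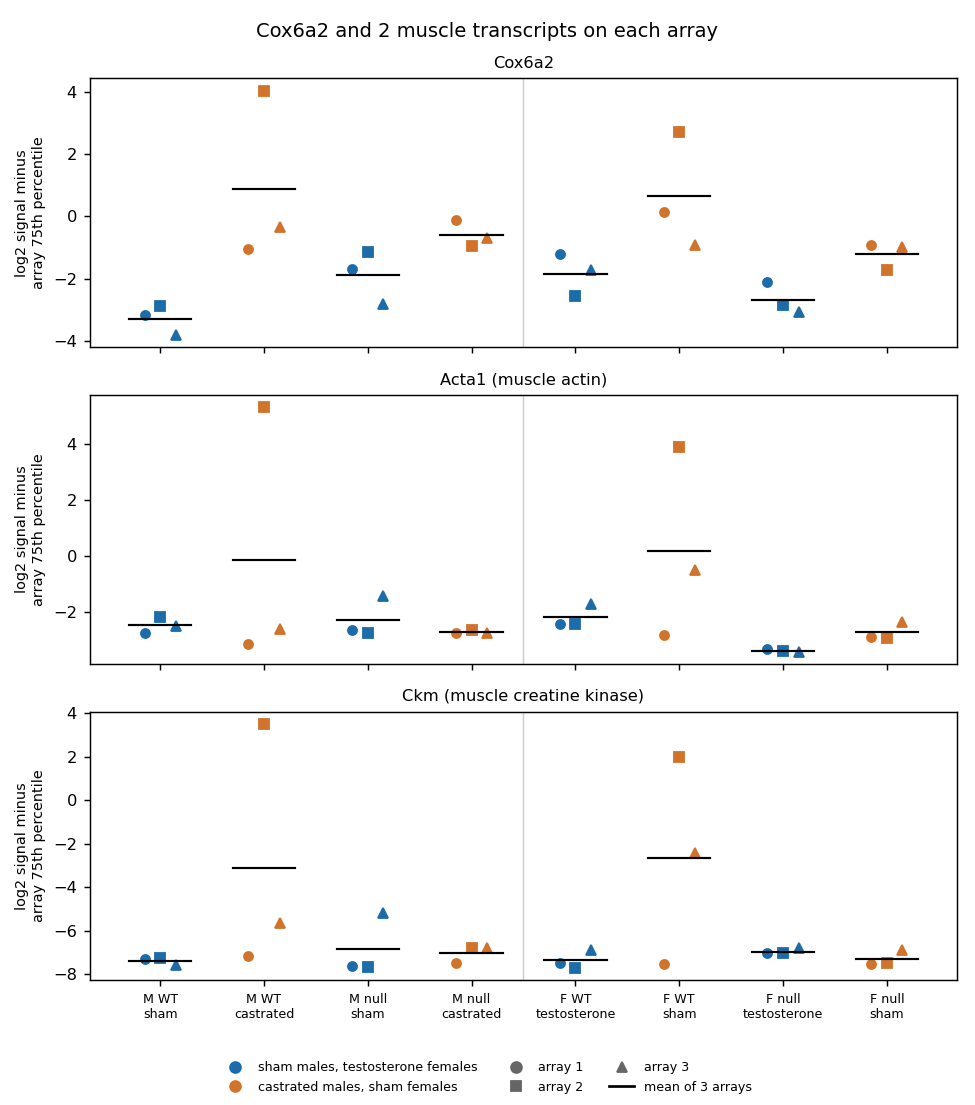
Cox6a2 (top), Acta1 (middle) and Ckm (bottom) on each array, as log2 signal minus the array 75th percentile, by labelled group (M male, F female); symbols mark array numbers, colours the androgen state, lines the mean of 3 arrays. Cox6a2 is higher in the castrated or sham female group of each of the 4 pairs, and its readings of 4.03 and 2.71 fall on the arrays with Acta1 at 5.33 and 3.91.

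Ndufb6 (probe at chr4:40219858-40224715, mm9, minus strand) had the higher mean in the high-androgen group of each pair. Male WT arrays read 5.37, 5.47 and 5.54 (sham) against 5.17, 5.05 and 5.01 (castrated), and male null arrays 5.32, 5.13 and 5.17 against 4.92, 5.15 and 4.88. Female WT arrays read 5.03, 5.40 and 5.39 (testosterone) against 5.13, 5.05 and 4.79 (sham), and female null arrays 5.20, 5.03 and 5.05 against 4.84, 5.13 and 4.53. Only the WT male groups did not overlap. Its second probe gave 0.27. Cox6b2 (probe at chr7:4703488-4703547, mm9, minus strand) had the same direction in each pair. WT males read -0.62, -0.52 and -0.57 (sham) against -0.75, -0.96 and -0.79 (castrated), and null males -0.40, -0.51 and -0.40 against -0.75, -0.40 and -0.93. WT females read -0.27, -0.05 and -0.49 (testosterone) against -0.55, -0.89 and -0.34 (sham), and null females -0.10, -0.02 and -0.21 against -0.27, -0.43 and -0.75. The WT male and null female groups did not overlap. With 1 array left out, the call of Ndufb6 and that of Cox6b2 each held in 4 of 24 fits, and that of Cox6a2 in 24. Without the 2 arrays with the most muscle transcripts they were 0.29 ± 0.09 (adjusted p = 0.0995) and 0.25 ± 0.08 (adjusted p = 0.155).

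Cox8b and Cox7a1 had larger differences than Ndufb6 and Cox6b2 but were not called. Cox8b, the subunit 8 form of heart, muscle and brown fat, was higher with high androgen by 0.50 ± 0.14 and missed the threshold (adjusted p = 0.0512). It was called with the slide as a block (0.50 ± 0.11, adjusted p = 0.0106), the replicate number as a block (0.039), normexp (0.0329), the deposited table (0.0307) and the filter on all 24 arrays (0.0407). Over its 14 alternatives the adjusted p ran from 0.0106 to 0.136. In WT males it read 7.07, 7.05 and 6.82 after sham surgery and 6.02, 6.31 and 6.04 after castration, without overlap. In null males the sham arrays (6.61, 6.64 and 6.38) and castrated arrays (6.68, 7.09 and 6.33) overlapped. With testosterone it read 6.51, 7.25 and 7.63 in WT females against 6.43, 6.32 and 6.67 in sham arrays, and 6.97, 6.85 and 7.13 against 6.15, 7.01 and 5.88 in null females. The interaction of genotype with castration, 1.01 ± 0.39, was not called (adjusted p = 0.869). Cox7a1, the muscle and brown fat form of subunit 7a, differed by 0.44 ± 0.16 (adjusted p = 0.189). Their widely expressed partners differed by 0.13 ± 0.08 (Cox8a, adjusted p = 0.539) and 0.18 ± 0.09 (Cox7a2, adjusted p = 0.388), and Cox6a1, the partner of Cox6a2, by 0.08 ± 0.09 (adjusted p = 0.913).

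**Figure D3:**
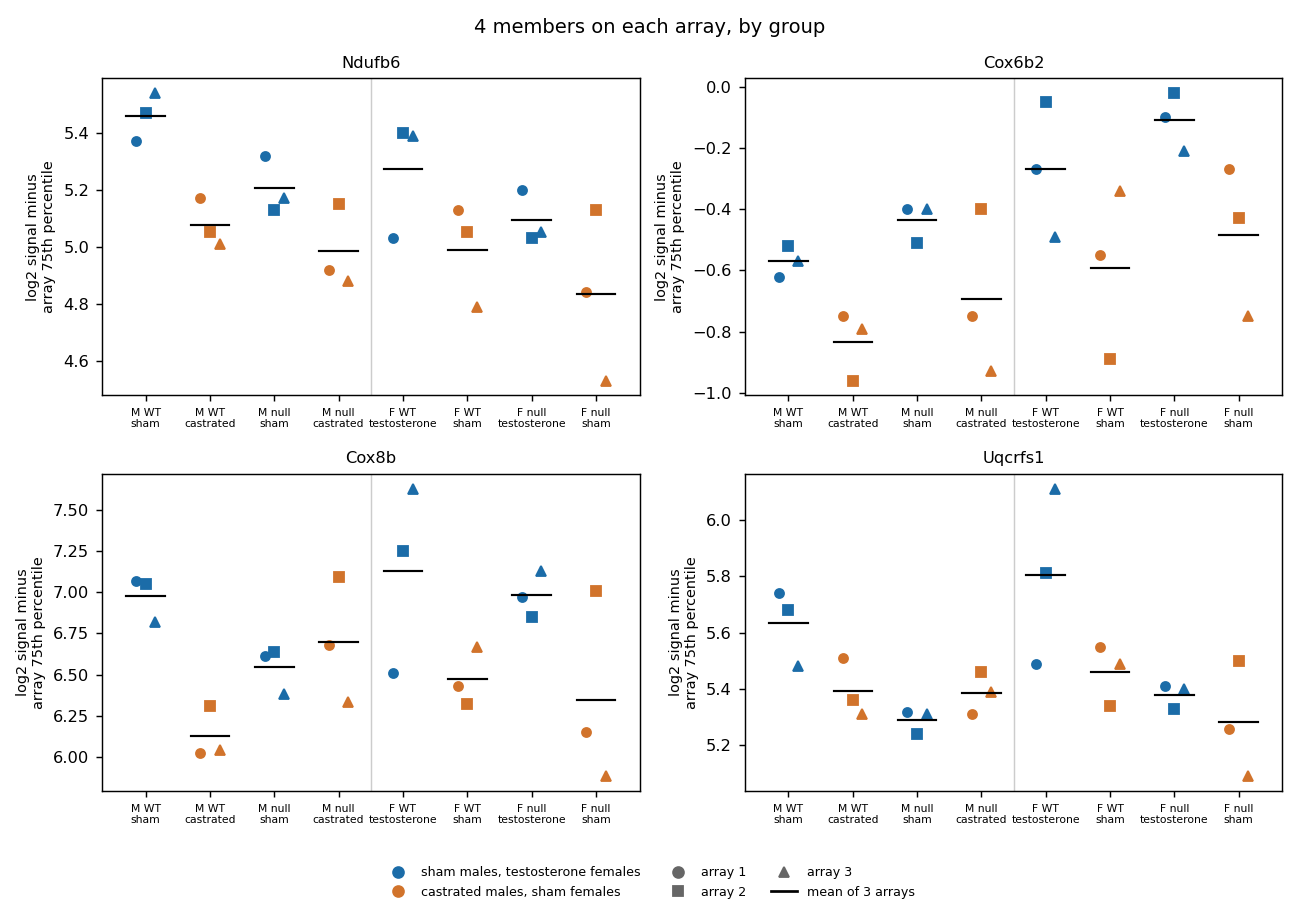
Ndufb6, Cox6b2, Cox8b and Uqcrfs1 on each array, as log2 signal minus the array 75th percentile, by labelled group; symbols mark array numbers, colours the androgen state, lines the mean of 3 arrays. Ndufb6 and Cox6b2 have the higher mean in the high-androgen group of each pair, and Cox8b in 3 of 4, the exception being null males (6.54 against 6.70).

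Brown fat transcripts were on every array, and Cidea and Ucp1 ran with these isoforms. No correlation was computed for the other listed brown fat markers. The summed level of the 7 brown fat markers, all measured, was 8.28 to 8.61 in WT sham males, 7.23 to 7.64 in WT castrated males, 8.02 to 9.41 in WT testosterone females, and 7.73 to 8.00 in WT sham females. In null glands it was 7.83 to 8.10 in sham and 7.47 to 8.18 in castrated males, and 7.61 to 8.07 in testosterone and 6.67 to 8.29 in sham females. High- and low-androgen groups thus did not overlap in WT glands and overlapped in null glands. None of the 7 was called in the androgen mean, where all 7 differences were above 0 (median 0.47), nor was any of the 7 white fat markers, all above 0 as well (median 0.45). Across the 24 arrays, Cidea, a lipid droplet gene of brown fat, correlated with Cox8b (Pearson r = 0.88, permutation p = 1e-05, adjusted 2.5e-05; Spearman rho = 0.87, permutation p = 1e-05, adjusted 5e-05). For Cox7a1 the values were r = 0.84 and rho = 0.89, with the same p-values. The value of 1e-05 is the smallest that 100000 permutations can give, and adjustment was over 10 relations. Permutations shuffled all 24 arrays regardless of group and slide, so their p-values take no account of either.

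The relation with Cidea held without the 2 arrays farthest from its median (r = 0.86 for Cox8b and 0.81 for Cox7a1), in deviations from group means (0.93 and 0.92), and within slides 1 to 3 (0.79 to 0.90 and 0.65 to 0.78). The fourth slide held 2 arrays and gives no value. The partners also ran with Cidea, Cox8a at r = 0.77 (permutation p = 1e-05, adjusted 2.5e-05; rho = 0.71, permutation p = 0.00016, adjusted 0.00032) and Cox7a2 at r = 0.73 (permutation p = 4e-05, adjusted 8e-05; rho = 0.74, permutation p = 0.00011, adjusted 0.00027). So did the median of the 89 members (r = 0.85, permutation p = 1e-05, adjusted 2.5e-05; rho = 0.81, permutation p = 2e-05, adjusted 6.7e-05). With Ucp1, the uncoupling protein of brown fat, r was 0.70 for Cox8b (permutation p = 8e-05, adjusted 0.00013; rho = 0.60, permutation p = 0.0026, adjusted 0.0043) and 0.70 for Cox7a1 (permutation p = 0.00011, adjusted 0.00016; rho = 0.57, permutation p = 0.004, adjusted 0.0058). Without the 2 arrays farthest from the median of Ucp1, these fell to 0.52 and 0.51. The other relations with Ucp1 were weaker: r was 0.53 for Cox8a (permutation p = 0.0069, adjusted 0.0077; rho = 0.51, permutation p = 0.011, adjusted 0.013), 0.48 for Cox7a2 (permutation p = 0.017, adjusted 0.017; rho = 0.46, permutation p = 0.026, adjusted 0.026) and 0.61 for the member median (permutation p = 0.0017, adjusted 0.0021; rho = 0.54, permutation p = 0.0067, adjusted 0.0083). Without the 2 arrays they were 0.27, 0.27 and 0.34. Slide by slide they were 0.05, 0.02 and 0.11 on slide 1, 0.60, 0.79 and 0.70 on slide 2, and 0.42, 0.46 and 0.49 on slide 3. Within slides 1 to 3 the relation of Ucp1 with Cox8b was 0.55, 0.68 and 0.57, and with Cox7a1 0.44, 0.76 and 0.57. The part of brown fat transcripts in the androgen differences was not tested.

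**Figure D4:**
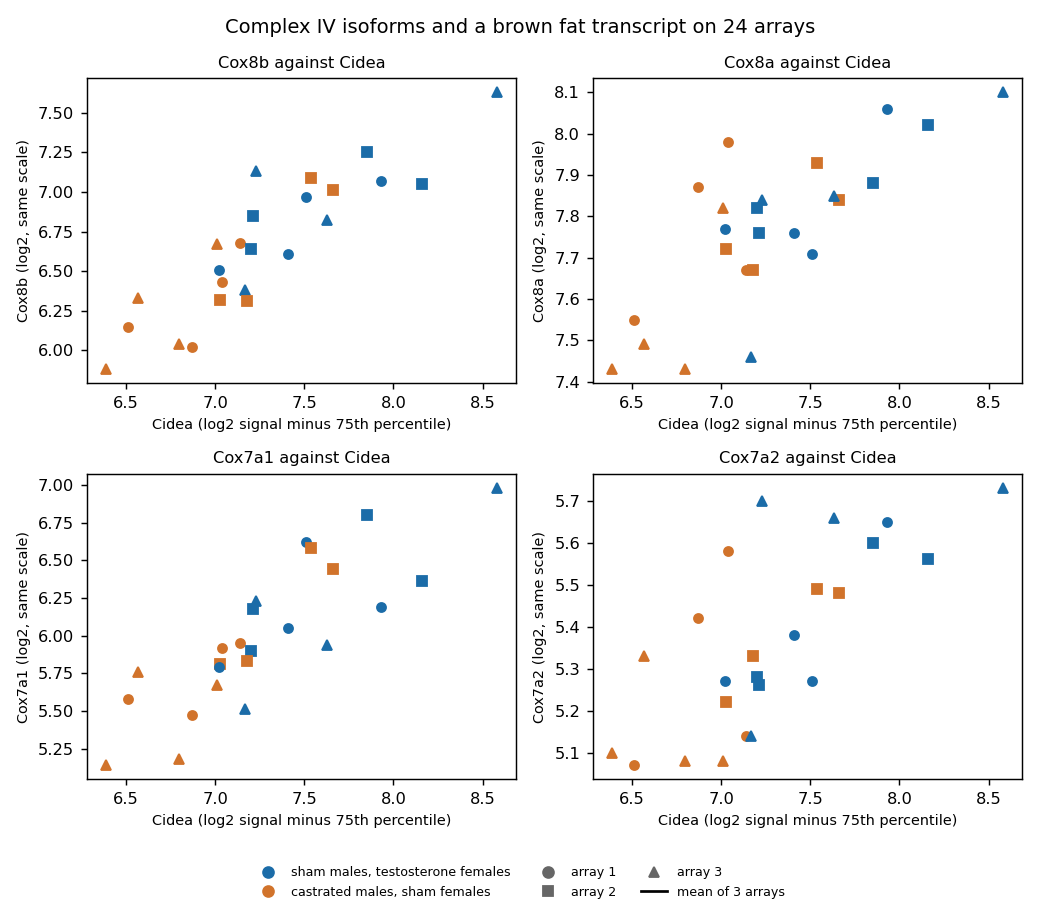
Level of Cox8b, Cox8a, Cox7a1 and Cox7a2 against Cidea on 24 arrays, as log2 signal minus the array 75th percentile on both axes; symbols mark array numbers, colours the androgen state. Arrays with more Cidea have more of each gene, with r of 0.88 for Cox8b, 0.84 for Cox7a1, 0.77 for Cox8a and 0.73 for Cox7a2.

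By role, differences of high minus low androgen were above 0 in 7 of 7 complex I core members (median 0.15), 30 of 31 others counted by name with complex I (0.15), 4 of 4 complex II members (0.13), 8 of 8 complex III members (0.18) and 15 of 16 complex IV members (0.17). Complex V had 12 of 16 (0.11) and the assembly factors 4 of 7 (0.03). None of these was called beyond the 3 named above.

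Within single pairs limma called no member. After castration of WT males (0.705% of all features called), 81 of 89 differences were below 0, with a median of -0.26 against -0.04 over all features. At an unadjusted p under 0.05, 1 was higher and 8 were lower, or 10.1% of members beside 6.71% of all features. The castrated and sham groups did not overlap in 38.2% of members, beside 17.1% of all features. In null males (1.28% of features called) 39 differences were above 0 and 50 below, and 1 member passed unadjusted (1.12%, beside 10.1% of features). Groups did not overlap there in 6.74% of members and 22.3% of features. The share of separated members was above that of all features in WT males and below it in null males, and the interaction called no member. Members often moved together on an array, so such shares, here and below, do not count independent members. The median deviation over members on single arrays was 0.03 to 0.24 in WT sham and -0.29 to 0.05 in WT castrated males, which overlap. In null males it was -0.22 to 0.13 in sham and -0.23 to 0.16 in castrated arrays.

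With testosterone, 71 differences were above 0 in WT females (0.14% of features called by limma) and 65 in null females (0.273%), with a median of 0.14 in each. Over the alternatives other than leaving out 1 array, that median ran from 0 to 0.19 in WT and from 0.12 to 0.14 in null females. The WT pair on slide 4, both arrays with RNA integrity 3, had a median of 0.37, with 83 members above 0. Unadjusted, 7 were higher and 2 lower in WT females (10.1% of members, beside 6.57% of features), and 4 higher and 1 lower in null females (5.62%, beside 6.61%). Groups did not overlap in 3.37% of members and 8.15% of features in WT, and in 7.87% and 8.99% in null females. Sdhd had the smallest p in WT (0.76 ± 0.29, adjusted p = 0.555) and Sdhaf2 in null females (-0.37 ± 0.13, adjusted p = 0.491). The Sdhd difference ran from 0.09 to 1.03 over those alternatives, and Sdhd read 4.41 on female WT sham array 3.

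**Figure D5:**
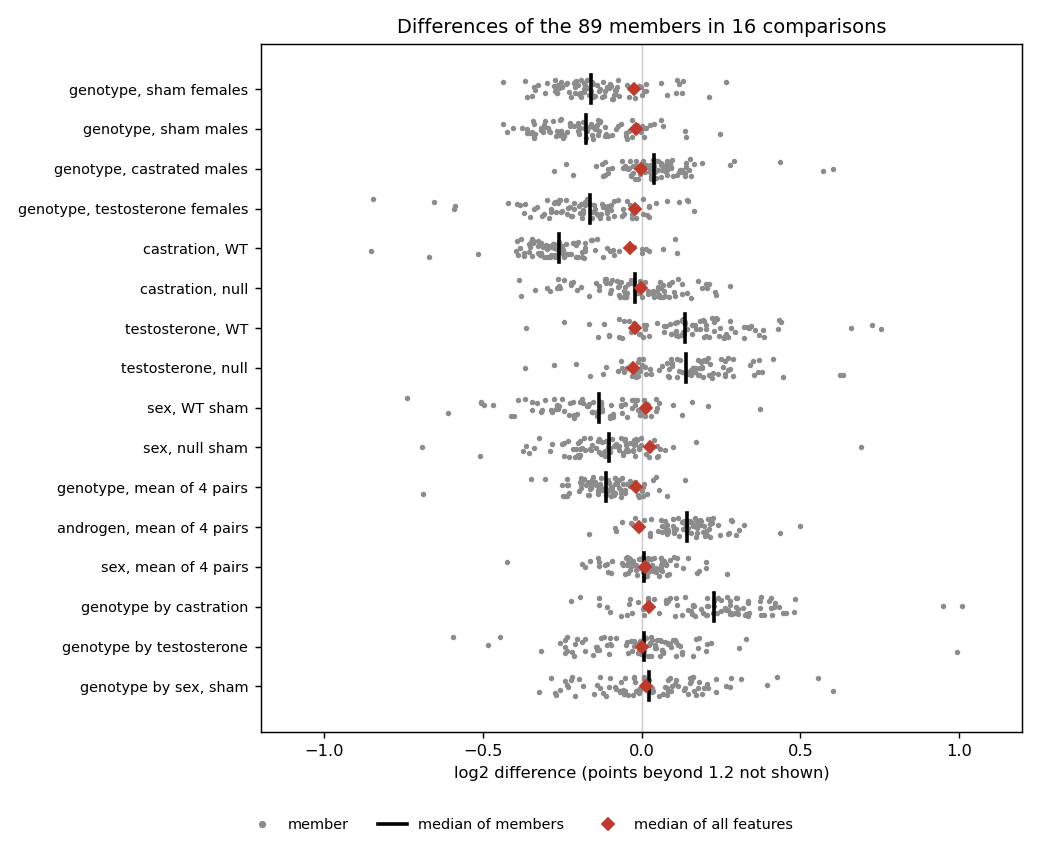
Log2 differences of the 89 members in 16 comparisons (grey points), with the median of members (black bar) and of all 26369 features (red diamond); at most 1 member a comparison, with a difference beyond 1.2, is not drawn. Members lie below 0 in WT castration (median -0.26) and above 0 in the androgen mean (0.14), and near 0 in the sex mean (0.01).

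The genotype comparison sets null against WT glands. No member was called in the mean of 4 pairs, beside 2.85% of all features (limma). Of 89 differences 79 were below 0, with a median of -0.11 against -0.02 over all features. Fat markers were measured beside them. All 7 white fat markers had differences below 0 (median -0.43), with Retn, which encodes resistin, called (-1.28 ± 0.25, adjusted p = 0.00843). Of the 7 brown fat markers 6 were below 0 (median -0.30), and the developmental factor Lhx8 was called higher (0.67 ± 0.16, adjusted p = 0.031). Their part in the differences of the members was not tested. At an unadjusted p under 0.05, 13 passed, all lower, which is 14.6% of members beside 15.3% of all features. Uqcrfs1, the Rieske iron-sulfur subunit of complex III (probe at chr13:30632363-30632422, mm9, minus strand), had the smallest p. It read 5.74, 5.68 and 5.48 in WT and 5.32, 5.24 and 5.31 in null sham males. In testosterone females it read 5.49, 5.81 and 6.11 in WT and 5.41, 5.33 and 5.40 in null arrays. Neither pair of groups overlapped. In castrated males (5.51, 5.36 and 5.31 in WT, 5.31, 5.46 and 5.39 in null arrays) and sham females (5.55, 5.34 and 5.49, against 5.26, 5.50 and 5.09) they did. Its mean difference was -0.24 ± 0.07 (adjusted p = 0.0906), and it was called with normexp background correction (-0.26 ± 0.07, adjusted p = 0.0475). It was also called with RNA integrity as a covariate (-0.24 ± 0.07, adjusted p = 0.0494), but not with the deposited table (adjusted p = 0.131).

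The next smallest p-values in the genotype mean belonged to Ndufa12, a complex I subunit (-0.23 ± 0.08, adjusted p = 0.159), the complex I assembly factor Ndufaf2 (-0.19 ± 0.07, adjusted p = 0.186) and Ndufa10 (-0.30 ± 0.12, adjusted p = 0.206). Over the alternatives other than leaving out 1 array, the adjusted p of Ndufaf2 ran from 0.0183 to 0.306. In single pairs limma called no member, beside 0.664% of all features in sham females, 0.0303% in sham males, 0.774% in castrated males and 0.0417% in testosterone females. Unadjusted, the members that passed numbered 0, 2, 1 and 4 in that order, where 10.4%, 3.75%, 7.54% and 8.77% of features did. Differences below 0 numbered 76, 77, 29 and 77 of 89. The groups did not overlap in 4.49% of members in sham females (13.7% of features), 30.3% in sham males (14.7%), 3.37% in castrated males (17.0%) and 15.7% in testosterone females (9.28%).

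Castrated males were the pair with most differences above 0, 60 of 89. Without the 9 arrays, which leaves 1 null castrated array, 14 of 88 differences there were above 0. Atp5sl had the smallest p in castrated males (0.29 ± 0.13, adjusted p = 0.579). In testosterone females the succinate dehydrogenase assembly factor Sdhaf2 averaged 1.39 ± 0.12 (SD, n = 3) in null and 1.77 ± 0.08 in WT arrays, which did not overlap, a difference of -0.38 ± 0.13 (adjusted p = 0.319). Genotype by testosterone gave Sdhaf2 the smallest p of the members (-0.60 ± 0.19, adjusted p = 0.579), with no member called by limma beside 0.114% of all features and 1 passing unadjusted (1.12%, beside 3.84%). Genotype by castration (0.0948% of features called, and 1 member unadjusted beside 4.35% of features) also called none, with 76 of 89 differences above 0 and a median of 0.23.

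Sex was compared within sham glands and as the mean of 4 pairs. Sham females are also a low-androgen group and sham males a high-androgen group. Within sham glands sex and androgen therefore cannot be told apart. In WT sham glands Cox6a2 was higher in females by 3.93 ± 0.98 (adjusted p = 0.0385), the 1 member called beside 2.61% of all features. Unadjusted, 8.99% of members passed beside 14.0% of features, and the groups did not overlap in 24.7% beside 17.9%. That call was lost with any male WT sham array left out, without female WT sham array 1 or 2, and without male null sham array 1 (adjusted p = 0.0511 to 0.151). Without the 9 arrays, which leaves 1 female WT sham array, the difference was 3.43. Without the 2 arrays with the most muscle transcripts, female WT sham array 2 among them, it was 2.90 ± 0.51 (adjusted p = 0.00912). In null sham glands (1.02% of features called) limma called no member, 3 were lower unadjusted (3.37%, beside 10.5% of features) and groups did not overlap in 4.49% of members beside 21.1% of features, the smallest p being that of Ndufb6 (-0.37 ± 0.15, adjusted p = 0.348). Genotype by sex (0.121% of features called, and 1 member unadjusted beside 6.22% of features) called none, with Cox6a2 at -3.23 ± 1.39 (adjusted p = 0.726). In the mean of 4 pairs (2.79% of features called) limma called none: Cox6b2 was 0.27 ± 0.08 (adjusted p = 0.099) and Ndufa4l2, a relative of Ndufa4 known to respond to hypoxia, -0.43 ± 0.14 (adjusted p = 0.131). Cox6a2 averaged -1.26 in females and -1.21 in males over these groups. Of 89 differences 51 were above 0, and 4.49% of members passed unadjusted beside 14.7% of features. In null sham glands 12 were above 0, and without the 9 arrays 59.

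Complex II, which is also the succinate dehydrogenase of the citric acid cycle, had no member called. In the androgen mean, Sdha (the flavoprotein) differed by 0.03 ± 0.06, Sdhb (the iron-sulfur protein) by 0.12 ± 0.10, and the membrane anchors Sdhc by 0.13 ± 0.06 and Sdhd by 0.32 ± 0.14 (adjusted p = 0.992, 0.783, 0.386 and 0.328). In the genotype mean the 4 lay between -0.08 and -0.02. Sdhd varied most of the 4. It read 4.41 on female WT sham array 3, where RNA integrity was 3, and 5.44 to 6.49 on the others. Cox6c (5.66) and Ndufc2 (4.33) were also lowest there. Of the other isoforms, Cox4i1 and Cox4i2, the widespread and lung forms of subunit 4, differed by 0.17 ± 0.10 and 0.01 ± 0.13 in the androgen mean (adjusted p = 0.519 and 0.999). Cox6b1 differed by 0.16 ± 0.09, Cox7b by 0.16 ± 0.10, Cox7a2l, which joins supercomplexes, by 0.06 ± 0.07, Ndufa4 by 0.18 ± 0.08 and Ndufa4l2 by 0.17 ± 0.14 (adjusted p = 0.37 to 0.887).

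Other genes of the pathway were read as lists. Of 16 citric acid cycle genes, all measured, 15 had a positive androgen difference with a median of 0.27, and none was called. The nearest was Pdha1, a subunit of pyruvate dehydrogenase (0.44 ± 0.13, adjusted p = 0.0634). Of 11 measured electron carriers and other chain genes 9 were positive and none was called, with Cycs, cytochrome c, at 0.32 ± 0.11 (adjusted p = 0.154). Of 22 measured assembly genes, Cox18, an insertase for complex IV, was lower with high androgen by 0.54 ± 0.08 (adjusted p = 0.000554). It missed the threshold over the 2 pairs without the 9 arrays (-0.64 ± 0.13, adjusted p = 0.0509). Of 16 measured biogenesis regulators, 11 carriers and uncouplers and 7 mitochondrial steroid genes none was called in either mean.

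In the genotype mean, Acad9, a complex I assembly factor, was lower in null glands by 0.31 ± 0.07 (adjusted p = 0.0274). That call was lost without the 2 arrays with the most muscle transcripts (-0.31 ± 0.08, adjusted p = 0.0656) and without the liver arrays (adjusted p = 0.0553). It was also lost with no filter on dim probes (adjusted p = 0.0529) and without slide 4 (adjusted p = 0.0509). Of 12 mitochondrially encoded transcripts, COX1, the catalytic subunit of complex IV, was lower by 0.44 ± 0.11 (adjusted p = 0.0399), and 11 of 12 differences were below 0. COX1 read highest on the 2 arrays with RNA integrity 3, both WT (9.34 and 9.42), and without them the difference was -0.35 ± 0.10 (adjusted p = 0.0871). It was -0.31 ± 0.09 (adjusted p = 0.072) with the slide as a block, -0.31 ± 0.10 (0.115) with quantile normalization and -0.34 ± 0.11 (0.102) with the deposited table, none of which passed, and adjusted p was 0.0651 with no filter on dim probes. Without the 2 arrays with the most muscle transcripts the COX1 difference was -0.45 ± 0.12 (adjusted p = 0.0782), and without the 4 with muscle transcripts -0.38. The COX1 call held with RNA integrity as a covariate (-0.45 ± 0.10, adjusted p = 0.0152), normexp (0.026) and the replicate number as a block (0.0352). It also held with the filter on all 24 arrays (0.0306), with all probes (0.0451) and without the liver arrays (0.0395). Of 12 hypoxia response genes 3 were called in the genotype mean: Egln3, an oxygen-sensing hydroxylase (-0.98 ± 0.14, adjusted p = 0.000714), and the hexokinase Hk2 (-0.64 ± 0.17, adjusted p = 0.0487) were lower, and the carbonic anhydrase Car9 higher (0.48 ± 0.12, adjusted p = 0.0365). In the androgen mean the list had 1 call, Bnip3, a mitophagy receptor (-0.49 ± 0.11, adjusted p = 0.0131). In the sex mean it had 3: Car9 was higher in females (0.63 ± 0.12, adjusted p = 0.00605), and the peptide hormone Adm (-0.53 ± 0.13, adjusted p = 0.0314) and Hk2 (-0.64 ± 0.17, adjusted p = 0.0468) were lower. The sex mean includes the 9 arrays with transcripts of the opposite sex. Calls of the hypoxia list were not recomputed under any alternative.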

How the data were processed

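Adrenal RNA was read on 24 Agilent one-colour arrays of 62976 features. Per the file headers, the deposited spot intensities came from Feature Extraction 10.7.3.1, whose processed signal is background subtracted and detrended. The authors also deposited a table of log2 values that, from their distribution, were quantile normalized. Depth is not defined for arrays; their number limits the precision. The log2 processed signal minus each array's 75th percentile was used, without outlier spots, 1 probe a gene. Ndufc1 and Ndufs6 have 1 such array each, so 23 arrays were used. limma 3.58.1 (R 4.3.3) was run with 1 coefficient a group (8) and 16 residual degrees of freedom, and p-values were adjusted by Benjamini-Hochberg over all 26369 features. Correlations used Python 3.11.15 with scipy 1.17.1. The procedure was tested on simulated data for the androgen mean (26189 features): it recovered 37 of 100 changes of 0.5 and 73 of 100 of 1, and called 7 unchanged features. The simulated noise was independent between features, so shifts shared by an array or a slide were not in it. Changes smaller than 0.5 were not simulated.

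Named members are the called ones, else the 4 smallest p of a comparison, tissue isoforms and complex II. Probe positions are those of mm9. An accession matched RefSeq for 88 of 89 members. The members and lists were chosen with earlier results of these data known. The numbers that arrays share across groups follow the slides, apart from the 2 arrays on slide 4, so they carry the slide as a batch. They were not used as a pairing of animals: deviations of same-numbered arrays correlated by 0.231 on average and by -0.40 at the lowest.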

Additional observations from a re-analysis of the deposited data

How the results depend on the processing

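Counts of called members moved as follows, with limma's adjusted p under 0.05. In the androgen mean (3 called) there were 5 with the deposited value table (3.8% of all features called), 9 with the slide as a block (6.69%), 1 with no filter on dim probes (2.0%), 1 with all probes (2.81%), 1 without the 2 arrays with liver transcripts (3.92%), 1 without the 2 (2.31%) and 1 without the 4 (2.34%) arrays with muscle transcripts, and 0 (1.06%) over the 2 pairs that hold none of the 9 arrays with transcripts of the opposite sex. Over all 14 alternatives run, Cox6a2 was called in 13, Cox6b2 in 7 and Ndufb6 in 6. In WT sham glands the sex count (1) was 0 with normexp (1.84%), 0 with no filter (1.38%), 0 without the liver arrays (2.54%), 0 without the 9 arrays (2.14%) and 2 with the slide block (5.42%). WT castration (0) had 1, Cox6a2, with a filter on all 24 arrays, the slide block, the replicate block, and without the 2 or the 4 muscle arrays. The genotype mean (0) had 1 with normexp (1.94%), 1 with RNA integrity as a covariate (5.12%) and 2 with the deposited table (3.25%). Leaving out 1 array gave 1 to 4 in the androgen mean, 0 to 1 in WT castration, WT sex and the genotype and sex means, and 0 elsewhere. Uqcrc1 reversed to -0.01 in castrated males without the 9 arrays, and Cox6c to -0.25 in genotype by sex without the 4 arrays. The cause was not tested. Comparisons that need WT testosterone females have no value without the 9 arrays. With the replicate number as a block the androgen mean had 4 called (4.86% of features); 19 of 24 arrays correlated best with their own number, which follows the slide apart from the 2 arrays on slide 4. The muscle alternatives and the 2-pair alternative were chosen after seeing the data.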
